A study of Danio rerio with 33 samples.

Results

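dre-miR-122 is the zebrafish form of miR-122, a liver miRNA, and its values were followed across small RNA libraries of adult tissues and embryo. It was found as the rows of the table of known mature miRNAs whose name holds miR-122, whichever the arm. There was 1 such row among the 247 mature miRNAs of miRBase Release 19, with no second arm in the table. Of those 247 miRNAs, 238 had a read in at least 1 library and entered the tests.

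The libraries came from wild type zebrafish labelled as the Singapore strain, bought from a local supplier. They formed 11 sample groups, namely female liver, male liver, female gut, male gut, female brain, male brain, ovary, testis, embryo, heart and eye. There were 3 libraries per group and 2 for heart. Every adult library held RNA pooled from several fishes, and the embryo libraries combined early embryonic stages with juveniles, so fewer cells of a type and less RNA per cell cannot be told apart. The labels give no sex for the embryo, heart and eye samples, and the text of the study describes eye and heart as male tissues. No age is given for the adult fishes. No treatment or mutation separated the groups.

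The reads counted on the known miRNAs numbered 277699 to 11732555 per library, with a median of 1439827, and this sum is the depth behind each value. Normalized counts are the deposited values, in which each library's read counts were scaled by TMM (Trimmed Mean of M-values) and given per 1000000. The labelled tissues were checked with miRNAs known from those tissues. The summed neural miRNAs (miR-9-5p, miR-124 and miR-128) were highest in brain, the summed intestinal miRNAs (miR-192, miR-194a, miR-194b and both arms of miR-459) were highest in gut, and the muscle miRNAs were highest in embryo and next in heart. The muscle statement is about the sum, and miR-206 averaged 26.2 normalized counts in heart against 43.9 in eye. The neural sum averaged 50899 in eye and 25462 in heart, against 9343 in embryo. Within the neural sum miR-124 went the other way, averaging 923 normalized counts in female brain and 811 in male brain, against 1784 in heart and 3325 in eye. The sum of the 9 miRNAs known from mammalian hepatocytes did not single out liver. The summed means were 280357 in male gut, 270707 in female liver, 250856 in female gut and 182058 in male liver. That list shares miR-192, miR-194a and miR-194b with the intestinal list, and miR-194a alone averaged 203000 in male gut and 101871 in female liver. Of the members not shared, miR-122, miR-101b, miR-148 and miR-22a averaged highest in a liver group, whereas miR-101a and miR-22b averaged highest in brain.

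miR-122 is the most abundant miRNA of hepatocytes in mammals, where it takes part in the control of cholesterol and fatty acid metabolism and keeps the differentiated state of the liver. It is also known as a host factor that hepatitis C virus needs. Like other miRNAs it is cut from a hairpin precursor, is loaded into an Argonaute protein, and pairs through its seed with sites in messenger RNAs. In the RefSeq annotation of the zebrafish assembly GRCz12tu the gene mir122 lies on chromosome 21, with the long non-coding RNA genes LOC141379988 and LOC100536431 next to it on either side, and the coding genes alpk2 and nedd4l next after those. The read counts were not made on that assembly, so no coordinates are given.

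The level of dre-miR-122 differed widely between the groups, and liver held most of it. In female liver the normalized counts were 77658, 124047 and 114800. In male liver they were 31463, 44970 and 45261. All 6 liver libraries lay above all 26 libraries of the other groups, and the lowest liver library was 2.78 times as high as the highest other library. Every liver library exceeded all others for 5 of the 238 miRNAs, which is 2.1% of them: miR-101b (3.39 times), miR-722 (2.98 times), miR-122, miR-30e-3p (1.31 times) and miR-22a (1.13 times).

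Gut came next. The female gut libraries had normalized counts of 11329, 7977 and 9118, and the male gut libraries had 2355, 2340 and 1855. Liver made up 90.6% and gut 7.23% of the sum of the 11 group means. Of all 631052 reads counted on dre-miR-122, 81.1% were in the liver libraries.

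On the TMM scale the ovary and embryo libraries were near the level of male gut. The values in ovary were 1707, 2091 and 1462, and those in embryo were 1470, 1529 and 1718. Ovary and embryo overlapped each other, and ovary overlapped male gut. This closeness depended on the scale. Per 1000000 processed reads the means were 506 in male gut, 218 in embryo and 78.1 in ovary, whereas as a share of counts they were 0.172% in male gut, 0.185% in embryo and 0.247% in ovary.

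Brain and testis were far lower. The normalized counts were 41.6, 109 and 53.9 in female brain, 32.9, 28.2 and 10.1 in male brain, and 56.4, 67.6 and 59.6 in testis. Female brain replicate 2 and male brain replicate 3 stood apart from the other libraries of their groups on this scale. These values rest on 43 to 368 reads per library, whereas the liver values rest on 49632 to 161708 reads.

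Heart and eye had the fewest reads. The heart libraries held 84 and 30 reads (6.66 and 2.14 normalized counts). The eye libraries held 2, 0 and 1 reads. At the depth of the eye library without a read, 3 reads would be 0.00025% of the counts, so that a share up to this was not detectable there. The intervals and floors given here cover counting error only, since the reads carry no molecular identifiers and are not independent molecules.

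**Figure D1:**
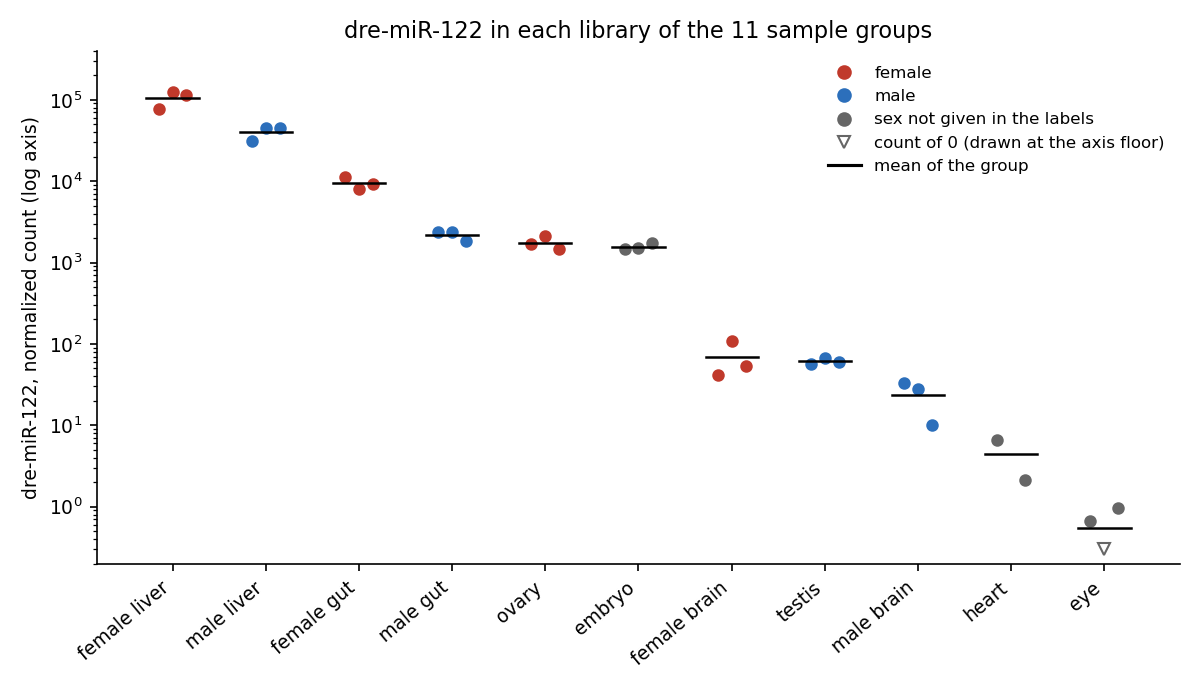
Normalized counts of dre-miR-122 on a log axis, by sample group in order of the group mean; each point is a library and each line the mean of its group. The 6 liver libraries lie between 31463 and 124047, above every other library, and the eye library with a count of 0 is drawn as an open triangle at the foot of the axis.

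The 11 group means fell in the order female liver, male liver, female gut, male gut, ovary, embryo, female brain, testis, male brain, heart and eye. They were 105502, 40564, 9475, 2183, 1753, 1572, 68.2, 61.2, 23.8, 4.40 and 0.546 normalized counts. Neighbours in this order were compared with the quasi-likelihood F-test of edgeR without a fold threshold, with p-values adjusted over the 238 miRNAs. For 3 pairs of neighbours the difference did not pass this test with TMM scaling. These were male gut over ovary (log2 fold change 0.32, SE 0.32, edgeR adjusted p = 0.376), ovary over embryo (0.16, SE 0.32, edgeR adjusted p = 0.650) and female brain over testis (0.16, SE 0.35, edgeR adjusted p = 0.690). Of all miRNAs, 72.3%, 78.2% and 79.8% differed in these comparisons. Scaled by processed reads, all 3 pairs differed. Male gut then exceeded ovary by 2.70 (SE 0.35, edgeR adjusted p = 5.97e-09), ovary was below embryo with a log2 fold change of -1.48 (SE 0.34, edgeR adjusted p = 0.000126), and female brain exceeded testis by 3.12 (SE 0.37, edgeR adjusted p = 7.4e-10). The median of all miRNAs stood at 2.32, -1.88 and 3.04 in these comparisons under that scaling, and at 0.01, -0.31 and 0.14 under TMM. With the total count as the scale none of the 3 pairs passed, and male gut over ovary was -0.52 (SE 0.33, edgeR adjusted p = 0.155).

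The other 7 steps passed that test. The widest was from embryo to female brain, where embryo was higher by 4.52 on the log2 scale (SE 0.37, edgeR adjusted p = 7.63e-12). Testis exceeded male brain by 1.49 (SE 0.39, edgeR adjusted p = 0.00115), male brain exceeded heart by 2.31 (SE 0.46, edgeR adjusted p = 5.05e-05) and heart exceeded eye by 2.83 (SE 0.95, edgeR adjusted p = 0.0296). Male liver exceeded female gut at an edgeR adjusted p of 7.61e-06, and the steps between the sexes of liver and of gut are given with the sex comparisons. The share of all miRNAs that differed in this test, in either direction, was 48.3% for male liver over female gut, 92% for embryo over female brain, 81.1% for testis over male brain, 83.6% for male brain over heart and 26.5% for heart over eye. When the libraries were scaled by processed reads, embryo stood above ovary and male brain above testis in the order.

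The question whether dre-miR-122 is associated with liver was asked as the study's design sets it, by comparing each sex of liver with the 9 groups of other tissues. The test was glmTreat of edgeR against a log2 fold change of 1, with adjusted p at most 0.05. Female liver exceeded 9 of the 9 groups and male liver exceeded 9 of the 9. In the same test, 11 of 238 miRNAs (4.62%) exceeded all 9 groups from female liver, and 3 of 238 (1.26%) from male liver. The 3 from male liver were miR-101b, miR-122 and miR-722.

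The smallest of the liver differences was that over female gut. Female liver was higher than female gut by 3.48 on the log2 scale (SE 0.34, edgeR adjusted p = 2.42e-07), a comparison in which 9.66% of all miRNAs were called higher. Over the 11 miRNAs that exceeded all 9 groups from female liver, 3.48 was the highest value of this smallest difference, and the next was 2.07 for miR-101b. Male liver was higher than female gut by 2.10 (SE 0.33, edgeR adjusted p = 0.00237), and there 7.14% of all miRNAs were called higher. From male liver the smallest difference of miR-101b, at 2.12, was slightly above the 2.10 of dre-miR-122. Scaled by processed reads in place of TMM, male liver over female gut was 1.35 and was not called (edgeR adjusted p = 0.148), so that male liver exceeded 8 of 9 groups.

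Over male gut, ovary and embryo the log2 fold changes were 5.59, 5.91 and 6.07 for female liver, and 4.21, 4.53 and 4.69 for male liver. Over female brain, testis and male brain they were 10.6, 10.7 and 12.2 for female liver, and 9.21, 9.37 and 10.9 for male liver. Over heart the values were 14.5 for female liver and 13.2 for male liver. Against the 3 pooled reads of eye the ratio was 183890 for female liver, with a 95% Poisson interval of the eye count alone of 62924 to 891702. For male liver this ratio was 70704 (24194 to 342851).

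**Figure D2:**
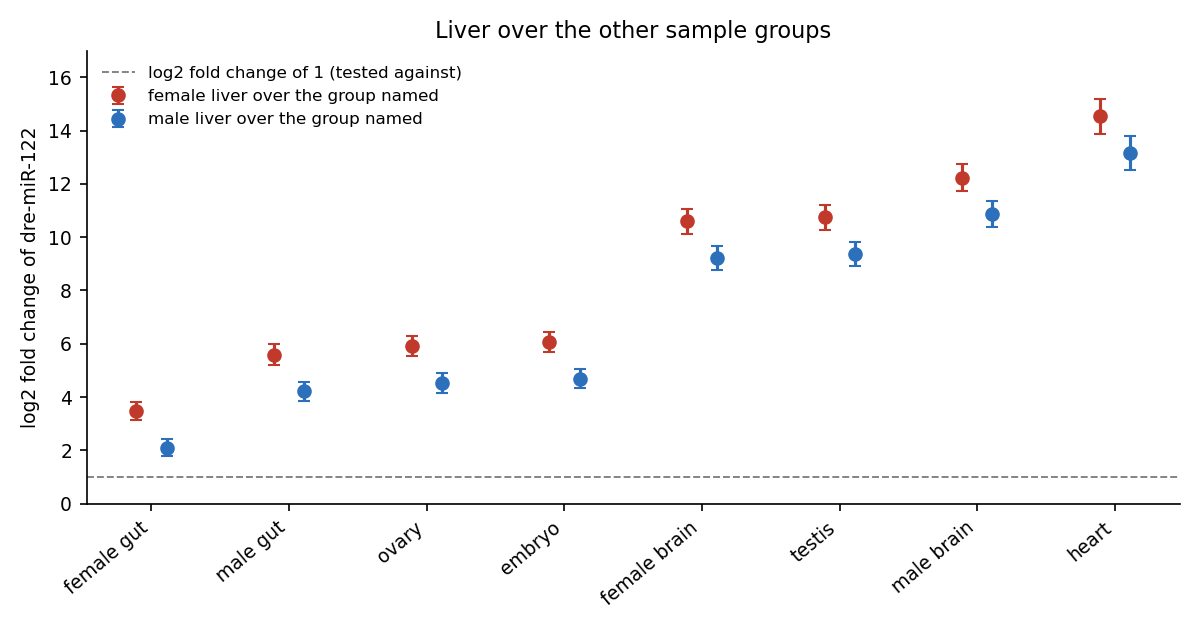
Fitted log2 fold changes of dre-miR-122 in female liver and in male liver over each other sample group, with bars of 1 SE; eye is left out because it held 3 reads in all. All points lie above the log2 fold change of 1 that was tested against, the lowest being male liver over female gut at 2.10.

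dre-miR-122 was among the most abundant miRNAs of liver without being the first. In female liver it took 5.55%, 6.24% and 7.92% of all counts and had rank 5, 4 and 4 among the miRNAs. In male liver it took 3.01%, 4.62% and 5.07% and had rank 7, 6 and 5. The 95% Wilson intervals of these shares were narrow beside the spread between libraries, the widest being 7.85 to 7.98% in female liver replicate 3.

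In all 6 liver libraries 3 miRNAs had more reads than dre-miR-122. let-7a, a member of the let-7 family known for its part in developmental timing, took 27.6% of the counts in female liver and 13.0% in male liver. miR-21 took 16.6% and miR-92a 13.4% in female liver, against 23.2% and 11.1% in male liver. miR-194a was above dre-miR-122 in 4 of the liver libraries, miR-10c in 2 and miR-459-5p in 1.

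Female and male fishes were compared within liver, gut and brain, and ovary was compared with testis. The fold threshold and adjusted p were those the study set for sex associated miRNAs. The test was glmTreat in the quasi-likelihood fit of all groups. The study used treatDGE within edgeR's generalized linear model framework. In all 4 comparisons every female library was above every male library. In liver 24.4% of all miRNAs were higher in all female libraries without overlap, in gut 20.6%, in brain 18.9%, and in ovary over testis 36.6%. The female libraries lay above the male libraries in all 3 tissues for 14 of 238 miRNAs (5.88%), of which 7 were let-7 miRNAs. When ovary over testis was added, 5 of 238 (2.1%) were left, namely miR-122, miR-126a-3p, miR-17a-5p, miR-19a-5p and miR-34c.

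The sex difference passed the test in gut, as did ovary over testis. Ovary and testis are different organs, so sex and organ cannot be told apart there. Female gut exceeded male gut by 2.12 on the log2 scale (SE 0.33, edgeR adjusted p = 0.00698), where 2.52% of all miRNAs were called higher. Without the fold threshold its edgeR adjusted p was 1.16e-05, and 29.8% of all miRNAs differed. It was called in edgeR under every alternative scaling and without any single library of the gut groups, but not by DESeq2 with the same threshold (2.02, DESeq2 adjusted p = 0.178). Ovary exceeded testis by 4.84 (SE 0.38, edgeR adjusted p = 4.58e-10), where 16.4% were called higher. By size of the log2 fold change, dre-miR-122 was in place 8 from the top of 238 in gut and in place 7 between ovary and testis.

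In liver and brain the difference did not pass the threshold of 1 on the log2 scale. Female liver was above male liver by 1.38 (SE 0.32, edgeR adjusted p = 0.192), and 7.56% of all miRNAs were called higher and 7.56% lower there. In a fit of the compared groups alone it was 1.52 and was called (edgeR adjusted p = 0.0293). Female brain was above male brain by 1.64 (SE 0.38, edgeR adjusted p = 0.279), and 0.42% were called higher. Tested for any difference, without the fold threshold, both passed (edgeR adjusted p = 0.000605 in liver and 0.00269 in brain), as did 53.8% of all miRNAs in liver and 10.1% in brain. In brain these fold changes rest on 54, 227 and 368 reads in the female libraries and 49, 43 and 48 in the male libraries.

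Whether the sex difference differed between tissues was tested as a difference of the contrasts. The sex difference in liver minus that in gut was -0.74 on the log2 scale (SE 0.44, edgeR adjusted p = 0.227), and 26.5% of all miRNAs passed this test. For liver minus brain it was -0.26 (SE 0.49, edgeR adjusted p = 0.694; 37.4% passed), and for gut minus brain 0.47 (SE 0.49, edgeR adjusted p = 0.595; 10.1% passed). In this fit of all groups none of the 3 differences passed. Scaled by the total count alone, the value for liver minus gut was -1.65 and passed (edgeR adjusted p = 0.00358), and with let-7 and dre-miR-122 left out of the total it was -1.44 (edgeR adjusted p = 0.0124). In a fit of the compared groups alone, scaled by TMM, it was -0.88 (edgeR adjusted p = 0.0317).

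The size of the liver difference depended on what the libraries were scaled by. Female over male liver was 1.38 with TMM, 1.38 with DESeq2 size factors, 0.63 with the total count, 1.04 with the total count less dre-miR-122 and let-7, and 1.61 with processed reads. The median of all 238 miRNAs moved with it, at -0.13, -0.11, -0.85, -0.44 and 0.01 under the same scalings. Relative to that median, dre-miR-122 was higher in female liver by 1.48 to 1.60 under all 5. A scaling shifts all miRNAs of a comparison by nearly the same amount, so this distance could hardly change and the 5 values are not separate support. let-7 miRNAs made up 34.9% ± 0.332 of the counts in female liver and 18.0% ± 2.55 in male liver (SD, n = 3 each), and the TMM factors were 0.503 to 0.715 in the female and 0.958 to 1.12 in the male liver libraries. The part of the let-7 share in these values was not tested beyond the scaling that leaves let-7 out.

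In gut the same 5 scalings gave 2.12, 2.02, 2.28, 2.48 and 2.54, and in brain 1.64, 1.76, 1.61, 1.71 and 2.58. With processed reads the brain difference was called (edgeR adjusted p = 0.00119). The median of all miRNAs in brain was then 0.83, against 0.02 with TMM. Relative to the median, dre-miR-122 was higher in female brain by 1.74 with processed reads and by 1.63 with TMM. In gut the median was 0.38 with processed reads and -0.01 with TMM, and in ovary over testis it was -0.45 and 0.29. Ovary over testis was 4.84, 4.66, 5.27, 5.09 and 4.07. The direction was thus the same under each scaling, higher in female fishes within the 3 tissues and higher in ovary than in testis.

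**Figure D3:**
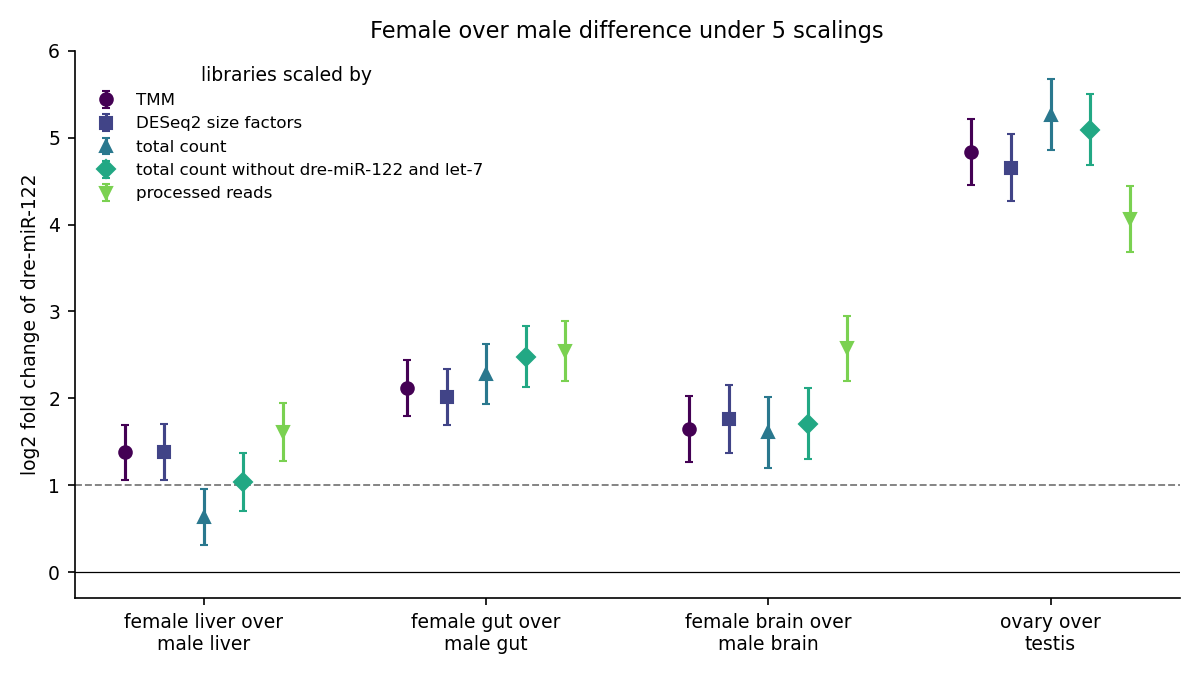
Log2 fold change of dre-miR-122, female over male, in liver, gut and brain and in ovary over testis, under 5 ways of scaling the libraries; bars are 1 SE and the dashed line is the log2 fold change of 1. The liver values run from 0.63 to 1.61, those of gut from 2.02 to 2.54, and all values are above 0.

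As a share of all counts, dre-miR-122 took 6.57% ± 1.22 in female liver and 4.23% ± 1.08 in male liver (SD, n = 3 each). The difference was 2.34 percentage points, with the lowest female library at 5.55% and the highest male library at 5.07%. An exact two-sided permutation test gave p = 0.1, which is the smallest p that 3 against 3 libraries allow. The libraries did not overlap, but they lay close, and female liver replicate 1 and male liver replicate 3 were the nearest.

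In gut the shares were 1.03%, 0.650% and 0.830% in the female libraries, against 0.179%, 0.180% and 0.158% in the male libraries. The lowest-count library was male gut replicate 3, with 1682 reads and a 95% Wilson interval of 0.151 to 0.166%. The means were 0.837% ± 0.190 in female gut and 0.172% ± 0.0125 in male gut (SD, n = 3 each), a ratio of 4.86 (exact two-sided permutation p = 0.1, the smallest possible). The female gut libraries differed more among themselves than the male gut libraries and all lay above these.

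Ratios within a library do not depend on the scaling, but they depend on the miRNA they are taken against. miR-21 itself averaged 219192 normalized counts in female gut and 322078 in male gut, and 270005 in female liver and 224912 in male liver. The ratio of dre-miR-122 to miR-21 averaged 0.402 in female liver and 0.185 in male liver, and 0.0436 in female gut and 0.00677 in male gut. Its ratio to miR-192, an intestinal miRNA that is also abundant in liver, averaged 3.75 in female liver and 1.74 in male liver. In gut this ratio was 0.187 in the female and 0.0395 in the male libraries. In embryo, heart, ovary, testis and male brain the mean ratio to miR-192 lay between 0.575 and 0.754, and in female brain it was 1.96, so that these means were above those of gut. The libraries of testis were 0.863, 0.729 and 0.133, and the lowest of them lay within the female gut range of 0.129 to 0.228.

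Female gut had 8.98% of the mean normalized count of female liver, and male gut had 5.38% of that of male liver. As shares of counts the values were 12.7% in female and 4.07% in male fishes. Relative to their own liver level, the other miRNAs that exceeded all groups from both sexes of liver stood higher in gut. miR-101b in gut was at 23.9% of liver in female and 20.9% in male fishes, and miR-722 at 26.2% in female and 19.7% in male fishes.

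No sex difference was called for miR-101b and miR-722. Both were named because they exceeded all 9 groups from both sexes of liver, so a small sex difference in liver follows in part from that choice. In liver their female over male log2 fold changes were -0.06 (SE 0.15) and -0.01 (SE 0.14), and in gut they were 0.14 (SE 0.15) and 0.40 (SE 0.14) by edgeR. miR-101b averaged 2031 normalized counts in female gut and 1848 in male gut. These values stand beside 2.12 for dre-miR-122 in gut, and the difference between the miRNAs was not tested.

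The study's own list of liver associated miRNAs holds 8 members, which were chosen on these samples and so are not independent evidence of a direction. Female liver over male liver was called higher for 5 of the 8, beside 7.56% of all miRNAs. The list median was 1.52 on the log2 scale, beside -0.13 over all miRNAs. The 5 were miR-148 (2.35), let-7f (1.93), let-7g (1.80), miR-152 (1.54) and let-7h (1.50), and reads of close let-7 relatives may be shared between them. In the test above, these 5 exceeded all 9 groups from female liver but not from male liver. Their count and the list median in liver thus follow from how the list was chosen and are no support for a direction. In gut, 3 of the 8 were called higher in females, namely miR-122, miR-148 (1.76) and miR-152 (1.48), beside 2.52% of all miRNAs. The list median there was 1.08, beside -0.01 over all. Between the gonads dre-miR-122 was the only 1 of the 8 called higher in ovary, where 16.4% of all miRNAs were called higher. There let-7f (-1.44), let-7g (-2.57) and let-7h (-1.29) were called lower, as were 13.9% of all miRNAs.

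Of the 9 miRNAs taken as those of mammalian hepatocytes, which include miR-122, 1 was called higher in female than in male liver (miR-148), 2 in female than in male gut (miR-122 and miR-148) and 4 in ovary than in testis, where 7.56%, 2.52% and 16.4% of all miRNAs were called higher. The 4 in ovary were miR-122 and the members that the intestinal list also holds, miR-192, miR-194a and miR-194b. None of the remaining members was called there. Of these, miR-101b (0.56) and miR-148 (0.30) were higher in ovary, and miR-101a (-1.17), miR-22a (-0.21) and miR-22b (-1.24) were lower. None of the 9 was called lower in these comparisons. The list medians were 0.24 in liver, -0.09 in gut and 0.56 between ovary and testis, beside -0.13, -0.01 and 0.29 over all miRNAs.

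Of the 5 intestinal miRNAs, none was called between the sexes in liver or gut by glmTreat of edgeR. Their summed level was 138271 to 168443 normalized counts in female liver and 121001 to 174348 in male liver, and 260903 to 317423 in female gut and 300166 to 373806 in male gut. The members did not move together between the sexes of liver. Female over male liver was 0.24 for miR-192 and 0.18 for miR-194a, but -0.78 for miR-194b, -0.68 for miR-459-3p and -0.82 for miR-459-5p. In gut all 5 were lower in females, with log2 fold changes of -0.09 to -0.39. Between ovary and testis all 5 were called higher in ovary, with log2 fold changes of 3.63 for miR-192, 3.13 for miR-194a, 3.14 for miR-459-3p, 1.93 for miR-194b and 1.92 for miR-459-5p, beside 16.4% of all miRNAs called higher. Their summed level was 6923 to 12101 in ovary and 579 to 2459 in testis, and no member was at 0 in either. The intestinal miRNAs thus moved with dre-miR-122 between the gonads, and their part in that result was not tested.

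miR-430 is the miRNA family that clears maternal messenger RNAs in zebrafish embryos. The summed miR-430a, miR-430b and miR-430c were highest in embryo and next in ovary. These 3 members together had 68.5 to 74.9 normalized counts in female liver and 0.658 to 3.65 in male liver. In gut they had 32.2 to 41.9 in the female and 0 to 0.597 in the male libraries. In embryo the sum was 161825 to 184934, and in ovary it was 2155 to 8764. Of the 3 members, 2 were called higher in the female libraries of liver and of gut (miR-430a and miR-430b), beside 7.56% of all miRNAs in liver and 2.52% in gut. In both tissues miR-430 moved with dre-miR-122. In brain, where dre-miR-122 was also higher in every female library, the miR-430 sum was 0 to 0.439 in females. It was 0 to 0.211 in male brain, and no member was called there. In ovary, dre-miR-122 itself was at 1462 to 2091 normalized counts, below every library of female liver and female gut. What part ovary RNA had in the liver and gut values was not tested.

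Of the 4 pancreatic, 2 erythroid and 6 epithelial miRNAs, none was called between the sexes in liver or gut by glmTreat of edgeR. The 4 pancreatic miRNAs summed to 1990 to 2991 normalized counts in female liver and 4912 to 5858 in male liver, and to 4642 to 5509 in female gut and 5948 to 6839 in male gut. Of the 4 leukocyte miRNAs, 1 was called lower in female than in male liver, as were 7.56% of all miRNAs, and none was called in gut. No member of these 4 lists was thus called higher in the female libraries of liver or gut. Of all miRNAs, 7.56% were called higher in liver and 2.52% in gut, so few calls would be due in lists this short.

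The miRNAs with the pattern most like dre-miR-122 were found by Pearson's r over the 11 group means of log2(normalized count + 1), among 237 miRNAs. The first 5 were miR-194a (r = 0.947), miR-192 (r = 0.946), miR-363 (r = 0.927), miR-459-5p (r = 0.924) and miR-459-3p (r = 0.912). Spearman's rho was between 0.882 and 0.909 for them. These are descriptions over 11 points, which share the libraries and their scaling. The same 5 came first when shares of the total count were used in place of the TMM-scaled values.

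None of these 5 was highest in female liver. miR-194a averaged 203000 normalized counts in male gut and 169200 in female gut, against 101871 in female liver and 89735 in male liver. miR-192 and both arms of miR-459 were also highest in male gut, while miR-363 was highest in male liver. All 5 were, like dre-miR-122, low in brain, heart and eye, while gut and liver came in the order seen for dre-miR-122 only in miR-363, and there with male liver first.

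**Figure D4:**
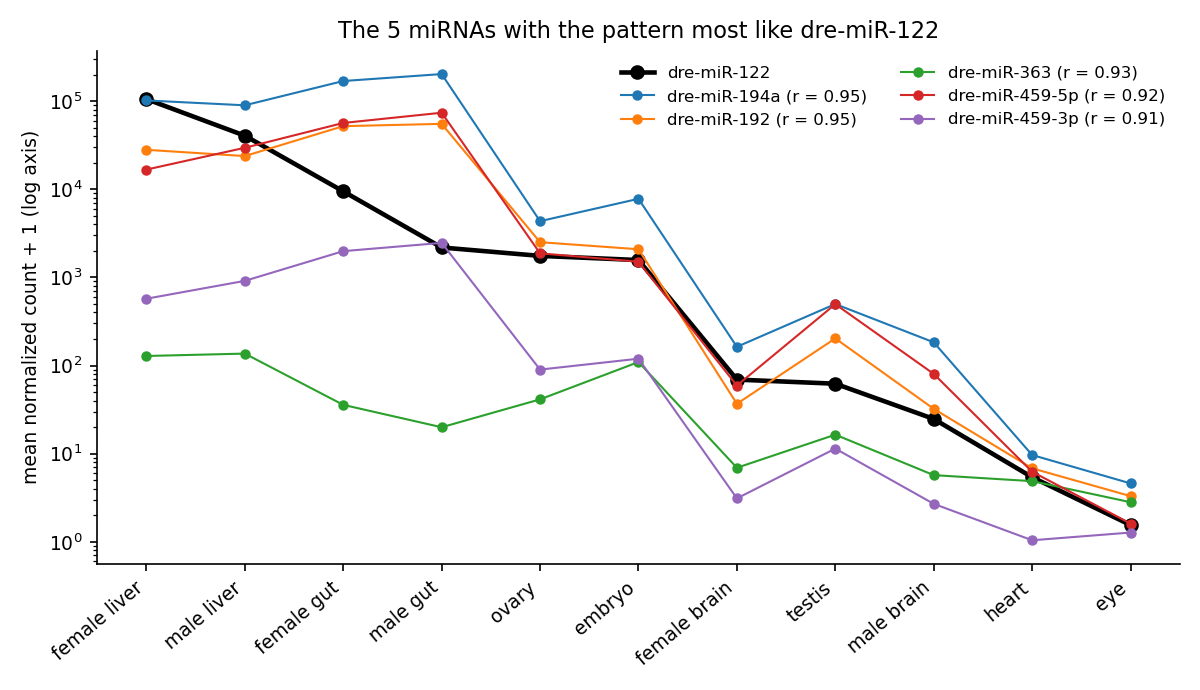
Mean normalized counts plus 1 on a log axis for dre-miR-122 and the 5 miRNAs with the highest Pearson's r to it, by sample group in the order of dre-miR-122. All 6 are low in heart and eye, and miR-194a, miR-192 and both arms of miR-459 are higher in gut than in liver whereas dre-miR-122 is higher in liver.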

How the data were processed

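The authors made small RNA libraries with a TruSeq kit, trimmed adaptors with cutadapt after base calling with CASAVA 1.8.2, counted reads on mature miRNAs with the miRDeep2 quantifier, and deposited these counts for 32 libraries. The authors also deposited a TMM-normalized signal, each library's counts times a single factor. One heart sample was not analysed here. The members and lists were chosen with earlier results of these data known.

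Counts were fitted with edgeR 4.0.16 (quasi-likelihood, TMM, 1 coefficient per sample group, 32 libraries). glmTreat tested each pair of groups for a change beyond 1 on the log2 scale, and the F-test compared contrasts. The Benjamini-Hochberg adjustment ran over 238 miRNAs, with calls at 0.05. SEs come from the F statistic. Libraries of a group are pools of fishes. Shares used scipy 1.17.1. The miRNAs named are dre-miR-122, those of the fixed lists, those above it in a liver library, those that exceed all other groups or libraries as it does, and the 5 of highest Pearson's r. Alternatives were other scalings, denominators, DESeq2 1.42.0, fits of the compared groups alone, a replicate block and leaving out each library. The scripts were tested on simulated data. No mature sequence of dre-miR-122 was used here.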

Additional observations from a re-analysis of the deposited data

How the results depend on the processing

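Of 288 alternative values, 260 kept their direction and their side of the threshold, or moved by less than the set limit. The call of liver in females over males appeared with a fit of the compared groups alone (1.52, edgeR adjusted p = 0.0293) and with the fold threshold applied after the test (1.38, edgeR adjusted p = 0.000605). That in brain appeared with processed reads (2.58, where the median of all miRNAs was 0.83) and with the threshold applied after the test (1.64). That in gut was lost in DESeq2 (2.02). The difference between the sex contrasts of liver and gut was called with total counts (-1.65), without dre-miR-122 and let-7 (-1.44) and with the compared groups alone (-0.88). The difference between liver and brain, not called, changed sign without male brain replicate 3 (0.22) or female brain replicate 2 (0.22), and that between gut and brain with processed reads (-0.035). Male gut over ovary was -0.52 with total counts, -0.48 without dre-miR-122 and let-7 and 2.70 with processed reads, while with processed reads ovary over embryo was -1.48 and female brain over testis 3.12, in tests added after seeing the data. The cause was not tested.

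Leaving out each library changed no call, and each sex of liver exceeded 9 of 9 groups in all 29 fits. It gave 1.23 to 1.54 in liver, 1.97 to 2.25 in gut, 1.14 to 1.97 in brain and 4.56 to 4.88 for ovary over testis. Differences between contrasts were -0.98 to -0.59 for liver minus gut, -0.61 to 0.22 for liver minus brain and 0.22 to 1.05 for gut minus brain. The difference of the shares was 1.66 to 2.85 percentage points in liver and 0.568 to 0.758 in gut.

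Without let-7 in the denominator the share differed by 4.90 points in liver and by 0.864 in gut. In gut it was 0.244 with processed reads and 0.806 without miR-21. Processed reads kept 7 of the 11 groups in place. On ratios chosen after seeing the data, the log2 ratio of means in liver was 1.12 against miR-21 and 1.10 against miR-192, beside 0.63 as a share.

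With the replicate number as a block the values were 1.38, 2.13, 1.63 and 4.83 for liver, gut, brain and the gonads, and -0.76, -0.26 and 0.50 for the differences, with no call changed. The labels do not say that a number marks a shared batch. Deviations of same-numbered libraries correlated at -0.07 to 0.18 in liver, -0.01 to 0.20 in gut, 0.00 to 0.25 in brain and -0.11 to 0.07 in gonads. With 3 libraries per group these values cannot decide whether the numbers pair the libraries. Few reads on dre-miR-122 limit the values of brain, testis, heart and eye, although the heart libraries are the deepest.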
